A study of Homo sapiens with 24 samples.

Results

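The arrays described here compare butyrate-treated HCT-116 cells with and without induction of DN-Tcf4. They were chosen by their titles, as the 6 arrays of cells given doxycycline and butyrate (DoxyNaB) and the 6 arrays of cells given butyrate alone (NaB), and make up 12 of the 24 arrays of the study. HCT-116 is a human colorectal cancer cell line in which Wnt signaling is active because of a mutant beta-catenin. All 4 treatments used 1 stably transfected clone that carries a Tet repressor and a Tet-inducible, FLAG-tagged DN-Tcf4, so the control cells hold the construct too, and no line without it was among the arrays. NaB cells received 5 mM sodium butyrate for 17.5 hr, DoxyNaB cells received 4 μg/ml doxycycline followed by the same butyrate treatment, Doxy cells received doxycycline only, and Ctl cells received neither agent. Because doxycycline is both the inducer and a drug, an effect of DN-Tcf4 and an effect of doxycycline cannot be told apart in DoxyNaB against NaB. The question of the comparison is which genes respond to DN-Tcf4 while butyrate is present.

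In canonical Wnt signaling, beta-catenin enters the nucleus and binds Tcf/Lef factors on DNA, which turns on genes for growth and for feedback on the pathway itself. Tcf4, the product of TCF7L2, is the main such factor of the colon epithelium. DN-Tcf4 is a dominant negative form that binds DNA but lacks the beta-catenin binding end, so it competes with the normal factors. Butyrate, a product of fiber fermentation in the colon, inhibits histone deacetylases and alters the activity of many genes, those of the Wnt pathway among them.

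Each array reports 1-colour signals of 43118 non-control spots, which cover 34127 probes. Levels are on a log2 scale, with 0 set at the 75th percentile of the spots of each array, so a difference of 1 is a 2-fold change, and levels of different genes are not compared. Tests covered the 18983 probes, of 15103 genes, that the scanner software marked as well above background throughout 1 or more of the treatments. A probe was called at a fold over 2 and a limma adjusted p under 0.01. Changes are given as the mean over the 6 experiments ± SD of the within-experiment differences (n = 6) unless stated otherwise. The limma p uses a spread estimated over all 24 arrays, so it need not follow this SD. In every experiment the NaB and DoxyNaB arrays shared a slide. NaB lay at position 2 and DoxyNaB at position 4 in experiments 2 to 6, where position and treatment cannot be told apart, and at positions 1 and 2 in experiment 1. The negative controls were brightest on the DoxyNaB array of experiment 2, with a mean net signal of 248.9, and on the NaB array of experiment 3, with 161, against 48.4 to 115 on the other 22 arrays. In experiment 3 the deviations of these 2 treatments did not run together (r = -0.22 over probes), whereas r was between 0.73 and 0.85 in the other 5 experiments. The highest r of a NaB array with a DoxyNaB array of another experiment was 0.55 to 0.88, and it exceeded that within the experiment in experiments 2, 3 and 6.

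The cells had the markers of colon epithelium on every array. All 8 markers were tested, and their summed level lay between 8.14 and 9.0 in NaB and between 8.05 and 8.60 in DoxyNaB. CLDN7 and CLDN4, which encode tight junction claudins, rose by 0.69 ± 0.21 (adjusted p = 4.69e-05) and 0.33 ± 0.18 (adjusted p = 0.00555), and the other 6 did not pass the test. Among these, the keratin KRT19 changed by -0.43 ± 0.28 (adjusted p = 0.024). Of the 8 markers, 2 were lower and 2 were higher in 6 of 6 experiments. Of the 6 blood cell markers 4 were tested. The summed level of all 6, with the untested ones, lay between -0.21 and 0.64 in NaB and between -0.15 and 0.99 in DoxyNaB. CD68, a lysosomal protein of macrophages that other cells also make, rose by 0.55 ± 0.19 (adjusted p = 0.0034). Of the 9 fibroblast and endothelial markers 3 were tested and 0 passed the test, also at an unadjusted limma p under 0.05, and COL3A1 and LUM were not well above background on any array of either treatment. Each of the 6 blood markers was well above background on at least 1 array of each treatment. The part of these markers in the results was not tested. All arrays were of 1 clone, and bulk RNA does not tell how many of its cells express a marker from how much RNA each holds.

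The TCF7L2 probes show which stretch of the gene was measured. The 2 probes printed here carry the contrast between the start of the gene and its later part. Both lie on the plus strand of chromosome 10 in NCBI36, the first at chr10:114714311-114714370 and the second at chr10:114901475-114901534.
TCF7L2 probe 1 of 4: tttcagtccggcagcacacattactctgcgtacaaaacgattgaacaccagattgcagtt
TCF7L2 probe 3 of 4: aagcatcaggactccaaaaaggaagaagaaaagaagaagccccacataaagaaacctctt
The level of probe 3 had a lowest, median and highest value of -2.75, -1.49 and -0.29 in NaB and of 0.54, 1.49 and 1.92 in DoxyNaB. The groups did not overlap, and the rise was 2.96 ± 0.88 (adjusted p = 3.65e-05). The probe at 114895793 rose by 3.22 ± 0.45, 9.33-fold, from 1.04, 1.52 and 2.74 to 4.05, 4.57 and 6.28 (adjusted p = 1.19e-10). The most 3′ probe, at 114915968, rose by 4.46 ± 0.52, and was well above background on 3 of the 6 NaB arrays and on all 6 DoxyNaB arrays. It was so on 1 of the 6 Ctl and 3 of the 6 Doxy arrays. It was therefore tested only because of DoxyNaB, where it is high, and the size of its rise is uncertain. The most 5′ probe moved the other way. Its levels of -3.39, -2.47 and -1.93 in NaB became -4.75, -3.94 and -2.83 in DoxyNaB, a fall of 1.25 on the log2 scale with an SD of 0.65 (adjusted p = 0.0057). Of the DoxyNaB arrays 4 had this dim probe well above background, its groups overlapped, and with normexp background correction its change was -0.19.

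On the arrays labelled Doxy, no TCF7L2 probe rose against Ctl. The changes of the 4 probes in 5′ to 3′ order were 0.36 ± 0.60, 0.04 ± 0.18, -0.17 ± 0.99 and 0.30 ± 0.66, with adjusted p of at least 0.62. For the 3 probes that rose with butyrate, the difference between the doxycycline responses with and without butyrate passed the interaction test (adjusted p from 5.52e-08 to 0.0015). The TCF7L2 probes therefore do not check the label of the Doxy arrays. UPP1 and DDIT3, described below, did rise on them, as they did with butyrate.

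**Figure D1:**
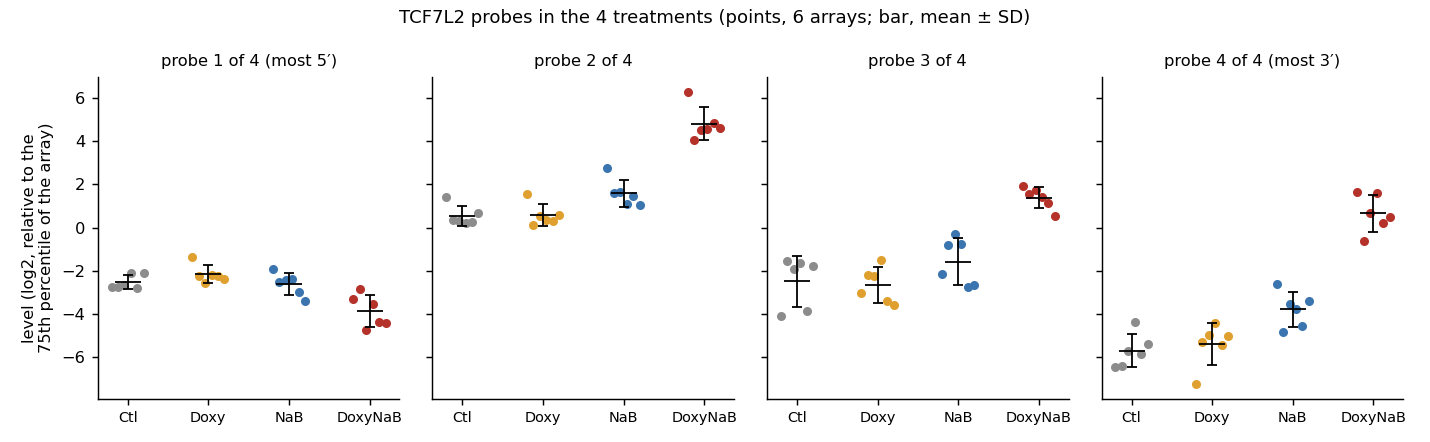
Levels of the 4 TCF7L2 probes, ordered along the gene, on each of the 24 arrays (vertical axis, log2 relative to the 75th percentile of the array); points are arrays, and bars are the mean ± SD of 6. The 3 later probes stand higher in DoxyNaB than in the other 3 treatments, and the most 5′ probe does not.

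Genome-wide, 72 probes were called in DoxyNaB against NaB, which is 0.379% of those tested, 48 lower (0.253%) and 24 higher (0.126%). With 1 probe a gene, the one of highest mean level, 40 genes were lower (0.265%) and 20 were higher (0.132%). The higher ones include TCF7L2, for which RNA of the DN-Tcf4 construct and of the gene itself was not told apart. The median change of all probes tested was -0.03. The median fold of the called probes was 2.49, and 18 of the 72 changed over 3-fold. Each called probe moved in its direction in every experiment that measured it, 70 of them in 6 experiments and 2 in 5. The calls rest on the same differences, so this count is a description only. Of all genes tested, 6.78% were lower and 3.47% were higher in 6 of 6 experiments. Levels of the 2 treatments did not overlap for 63 of the called probes, against 1.66% of all probes tested, a description only, since the calls rest on the same levels. Without the fold limit, 308 genes were lower (2.04%) and 104 were higher (0.689%) at an adjusted p under 0.01. Background correction with normexp kept 35 of the 72 calls, and median scaling after a floor of 5 kept 40. The brighter group of the probes kept with normexp had a median level of 1.68, and that of the probes lost had -0.50.

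**Figure D2:**
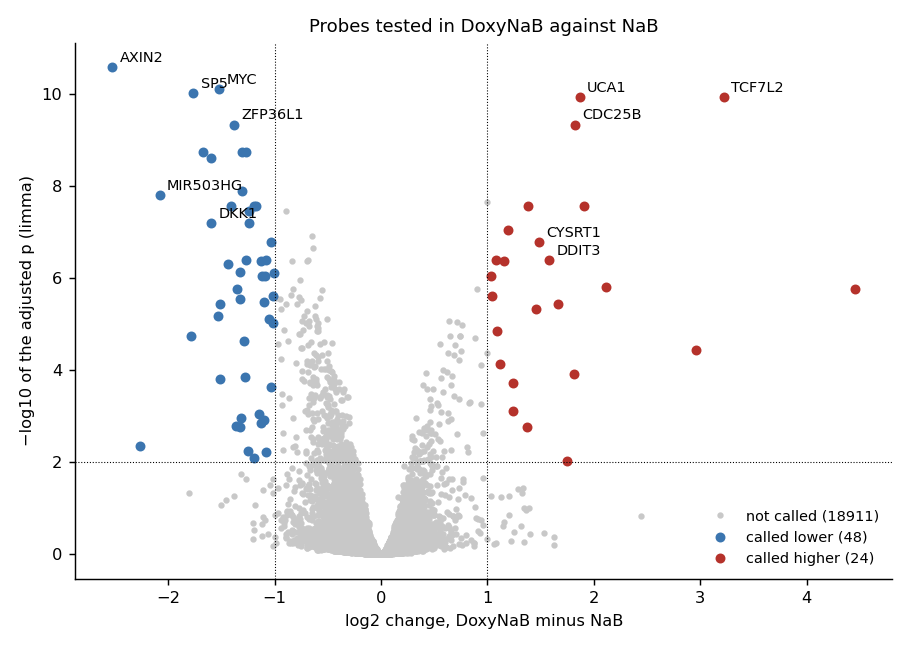
Change of each probe tested (horizontal axis, log2, DoxyNaB minus NaB) against the −log10 of its limma adjusted p (vertical axis); dotted lines mark a 2-fold change and an adjusted p of 0.01. The 48 probes called lower include AXIN2, SP5, MYC and DKK1, and the 24 called higher include TCF7L2, UCA1 and CDC25B.

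Of the 40 genes called lower, 6 were known Wnt/Tcf targets listed by the study. The study lists 11 such genes, and because the study chose that list itself its direction is not independent evidence. All 11 were tested: 6 were called lower, 9 passed an adjusted p under 0.01 as lower, 0 were higher, and their median change was -1.17 against -0.03 over all genes tested. Of all genes tested, 0.265% were called lower and 2.04% were lower at an adjusted p under 0.01. AXIN2, a scaffold of the complex that degrades beta-catenin and a feedback target of the pathway, had the largest fall of the genes tested. Its lowest, median and highest levels were 0.53, 0.98 and 2.10 in NaB and -1.75, -1.56 and -1.04 in DoxyNaB. The groups lay more than 1 log2 unit apart, and the change was -2.53 ± 0.34, 5.76-fold (adjusted p = 2.64e-11). SP5, a zinc finger repressor that acts on other Wnt targets, went from -0.14, 0.04 and 0.38 to -2.03, -1.76 and -1.34. Of the named genes that were called it had the smallest spread between experiments, with a change of -1.76 ± 0.10 (adjusted p = 9.70e-11). DKK1, a secreted inhibitor of Wnt receptors, went from 6.09, 6.48 and 7.12 to 4.56, 4.93 and 5.11, again with no overlap (-1.59 ± 0.38, adjusted p = 6.38e-08). MYC, a transcription factor that drives growth, went from 3.4, 3.65 and 3.93 to 1.76, 2.05 and 2.49 (-1.52 ± 0.15, adjusted p = 7.95e-11).

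Of the other listed targets, BMP4, a secreted ligand of the BMP pathway, changed by -1.31 ± 0.20 and KITLG, the ligand of the KIT receptor, by -1.17 ± 0.21, with adjusted p of 1.87e-09 and 2.70e-08. CCND1, the cyclin that opens the G1 phase, fell by 0.99 on the log2 scale (SD 0.24, adjusted p = 2.73e-06), just under the 2-fold limit. The SOX family factors SOX9 and SOX4 fell by 0.73 and 0.61 (SD 0.22 and 0.18, adjusted p = 0.00017 and 0.00015). SOX2 and the filament gene VIM had changes of -0.68 ± 0.22 and -0.48 ± 0.19 and did not pass the test, with adjusted p of 0.17 and 0.034. SOX2 was well above background on 5 of 6 Ctl and 2 of 6 Doxy arrays, whose spread also enters its limma p. Each of the 11 was lower in 6 of 6 experiments.

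Of 17 Wnt feedback and pathway targets, 12 were tested, 4 were called lower and 6 passed an adjusted p under 0.01 as lower, with a median change of -0.49. Over all genes tested, the shares were 0.265% called lower and 2.04% lower at an adjusted p under 0.01. Beside AXIN2, SP5 and DKK1, RNF43 was called, a ubiquitin ligase that removes Wnt receptors from the cell surface, with -1.01 ± 0.27 (adjusted p = 9.47e-06), but -0.59 with normexp. TCF7, a Tcf/Lef factor, and BAMBI, a decoy receptor, fell by 0.51 and 0.44 on the log2 scale (SD 0.11 and 0.19, adjusted p = 6.29e-05 and 0.00077). NKD1 and NKD2, which bind Dishevelled, had changes of -0.03 ± 0.42 and -0.16 ± 0.22, and ZNRF3, the close relative of RNF43, had -0.48 ± 0.29 (adjusted p = 0.057). Of the 22 Tcf/Lef factors and nuclear partners 19 were tested, and besides TCF7 and TCF7L2 only the co-repressor gene CTBP2 passed the test (-0.28 ± 0.13, adjusted p = 0.0063). Of the 43 ligands, receptors and secreted inhibitors 27 were tested and 0 were called, and the receptor gene FZD1 was the only one to pass an adjusted p under 0.01 (-0.46 ± 0.12). Of the 22 intestinal stem cell genes 17 were tested, and the 3 that fell, AXIN2, RNF43 and SOX9, are in the target lists as well.

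Promoters of 4 of the genes called lower hold a core Tcf/Lef site in the 250 bases before a transcription start, and they are printed because Tcf factors bind this core. The motifs searched were CTTTGAT and CTTTGTT on both strands, over all starts that RefSeq lists for a gene in GRCh38.p14, and 26 of the 40 lower genes had an entry. The sites are in capitals. SP5 is shown at chr2:170715087-170715336 and DKK1 at chr10:52314031-52314280, both on the plus strand, and AMOTL2 at chr3:134374448-134374697 and HES2 at chr1:6419920-6420169, both on the minus strand.
SP5: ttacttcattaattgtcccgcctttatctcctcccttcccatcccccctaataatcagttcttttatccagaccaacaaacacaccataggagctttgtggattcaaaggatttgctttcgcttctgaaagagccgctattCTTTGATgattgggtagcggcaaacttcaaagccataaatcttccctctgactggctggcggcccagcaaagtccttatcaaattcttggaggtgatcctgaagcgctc
DKK1: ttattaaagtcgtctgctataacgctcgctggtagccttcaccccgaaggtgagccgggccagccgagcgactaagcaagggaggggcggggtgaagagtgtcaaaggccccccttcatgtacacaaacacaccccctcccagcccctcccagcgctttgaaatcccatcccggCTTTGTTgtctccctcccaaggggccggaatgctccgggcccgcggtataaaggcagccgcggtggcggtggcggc
AMOTL2: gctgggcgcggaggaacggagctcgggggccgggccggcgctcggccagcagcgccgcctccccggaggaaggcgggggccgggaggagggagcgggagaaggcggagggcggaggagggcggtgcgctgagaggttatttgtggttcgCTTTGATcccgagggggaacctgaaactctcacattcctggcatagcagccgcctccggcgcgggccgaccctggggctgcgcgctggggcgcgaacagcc
HES2: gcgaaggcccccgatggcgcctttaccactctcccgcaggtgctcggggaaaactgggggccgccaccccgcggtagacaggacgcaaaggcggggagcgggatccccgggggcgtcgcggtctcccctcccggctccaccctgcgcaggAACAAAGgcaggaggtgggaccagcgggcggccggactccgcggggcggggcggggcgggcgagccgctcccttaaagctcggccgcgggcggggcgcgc
The share was 4 of 26 genes (15.4%) among those called lower and 3 of 13 (23.1%) among those called higher, which were PLAU, TCF7L2 and RNASE1. The cells also carry the Tet-inducible DN-Tcf4 construct, so the rise of TCF7L2 cannot be assigned to the promoter counted here. Without the fold limit, at an adjusted p under 0.01, the share was 24 of 228 (10.5%) among the lower genes and 6 of 77 (7.79%) among the higher ones, so the order of the directions turned. Over all tested genes it was 631 of 10501 (6.01%). These shares are a description of a short window and say nothing of binding. AMOTL2, an angiomotin family scaffold, and HES2, a basic helix-loop-helix repressor, had changes of -1.27 ± 0.15 and -1.08 ± 0.15.

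Outside the target lists, the genes with the largest falls were a mixed group. MIR503HG, the host transcript of miR-503, went from 0.08, 0.64 and 0.83 in NaB to -1.70, -1.58 and -0.88 in DoxyNaB (-2.08 ± 0.35, adjusted p = 1.58e-08). The zinc finger gene ZNF503 went from 3.43, 3.61 and 4.24 to 1.53, 2.04 and 2.28 (-1.67 ± 0.32), and its second probe and the antisense transcript ZNF503-AS2 changed by -1.60 ± 0.33 and -1.79 ± 0.42. ZFP36L1, which binds AU-rich elements and speeds mRNA decay, was lower on both of its probes (-1.38 ± 0.18 and -1.41 ± 0.31). None of these groups overlapped. The homeobox gene MSX1, often found downstream of BMP signals, changed by -1.30 ± 0.24 (adjusted p = 1.32e-08). ZNF280A, CPPED1, KRTAP3-1 and LAMA2 changed by -1.53 ± 0.49, -1.33 ± 0.33, -1.33 ± 0.35 and -1.32 ± 0.74. The laminin gene LAMA2 was nearly level in experiment 2 (-0.04), the experiment with bright negative controls, and its groups overlapped. Among these, ZNF503-AS2 (-0.66 with normexp), ZNF280A, CPPED1 and LAMA2, together with the transcript AF143325, were no longer called with normexp.

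Further genes called lower included the transcriptional regulators SNAI2 (-1.36 ± 0.37), ELF1 (-1.20 ± 0.22) and ZNF703 (-1.09 ± 0.28), and the keratins KRT23 (-1.29 ± 0.47) and KRT37 (-1.52 ± 0.51). SNAI2, KRT23, KRT37 and ZNF703 were not called with normexp. KRT37 was well above background on 2 of the 6 DoxyNaB arrays, and its change with normexp was -0.05. LINC00326 was not well above background on any DoxyNaB array and was so on 5 of 6 NaB arrays, which makes its fall at least 1.78-fold on the main scale (adjusted p = 0.0043). Its groups overlapped, its change was -0.27 in experiment 2 and -0.15 with normexp, and it was not called with normexp or without experiments 2 and 3. Probes of a gene disagreed for the metallothionein MT1X, where 1 probe changed by -1.24 ± 0.20 and the brighter one by 0.04 ± 0.27. RUNX1, POLR3C and MOSPD1 were called lower on some of their probes, and all their other probes had changes below 0.

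**Figure D3:**
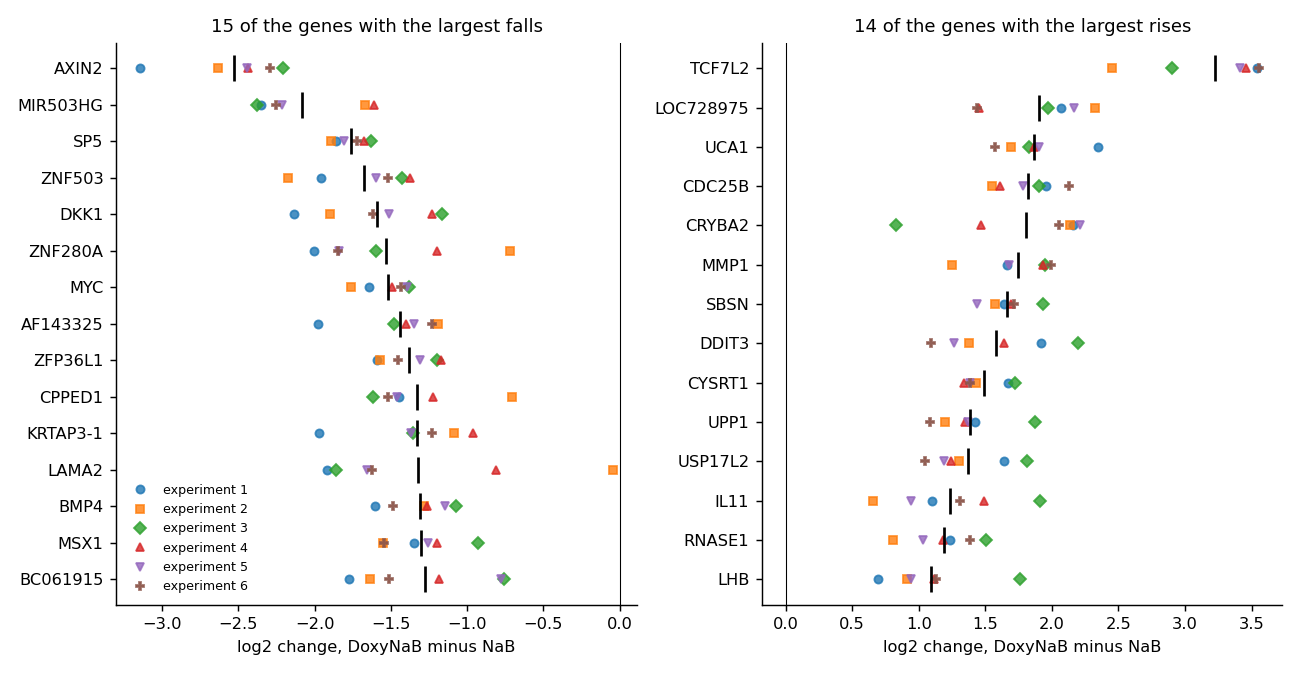
Change in each of the 6 experiments (symbols) and their mean (black tick) for the 15 genes with the largest falls and 14 of those with the largest rises that were well above background on all 12 arrays (horizontal axis, log2, DoxyNaB minus NaB). The genes were picked for the same direction in 6 of 6 experiments, so no symbol crosses 0, and LAMA2 in experiment 2 comes nearest to it.

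Among the genes that rose, TCF7L2 was followed by transcripts of varied function. UCA1, a long noncoding RNA described in bladder and colon cancer, went from -0.50, -0.45 and -0.28 in NaB to 1.21, 1.44 and 1.85 in DoxyNaB, a change of 1.87 ± 0.27 (adjusted p = 1.19e-10). CDC25B, a phosphatase that activates cyclin-dependent kinases at entry into mitosis, went from 0.61, 0.90 and 1.44 to 2.21, 2.66 and 3.4 (1.82 ± 0.22, adjusted p = 4.72e-10). The groups of both genes were clearly apart. CYSRT1 rose on both of its probes (1.49 ± 0.17 and 1.45 ± 0.15), and RNASE1, a secreted ribonuclease, rose by 1.19 ± 0.25 (adjusted p = 8.87e-08). SBSN, a secreted protein of stratified epithelia, rose by 1.66 ± 0.17, and the uncharacterized LOC728975 by 1.90 ± 0.37. The eye lens crystallin gene CRYBA2 rose by 1.81 ± 0.55 from a dim level.

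A collagenase and a plasminogen activator were among the risers. MMP1, the collagenase, went from -0.25, -0.06 and 0.43 to 1.57, 1.73 and 2.11 (1.74 ± 0.28, adjusted p = 0.0092). PLAU, the urokinase plasminogen activator, rose by 1.04 ± 0.33, and the cytokine IL11 rose by 1.24 ± 0.44. For LHB and USP17L2 (1.09 ± 0.36 and 1.37 ± 0.29), near-identical copies exist in the genome, so the member that rose is uncertain. Of the 24 probes called higher, 11 were called with normexp, and those of MMP1, PLAU, IL11, LHB, USP17L2, RNASE1, SBSN, CRYBA2 and HMGCS1 were not, with changes of 0.85 to 1.54.

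BMP and TGF-beta genes moved in both directions. Of 20 ligands, targets and antagonists 15 were tested, 3 were called lower and 0 higher, and 6 were lower and 2 higher at an adjusted p under 0.01, with a median of -0.46. Of all genes tested, 0.265% were called lower and 0.132% higher. At an adjusted p under 0.01, 2.04% of all genes were lower and 0.689% were higher. BMP4 and MSX1 are described above, and the other was CCN2, a matricellular protein also known as CTGF, with levels of 3.68, 4.14 and 4.57 in NaB and 2.79, 2.99 and 3.14 in DoxyNaB (-1.14 ± 0.39, adjusted p = 0.00091). CCN2 was not called with normexp or without experiments 2 and 3, where its changes were -1.22 and -1.20 and its adjusted p 0.022 and 0.032. Its relative CCN1 fell by 0.67 on the log2 scale (SD 0.28, adjusted p = 7.74e-05). Inhibitors of DNA binding were split, with ID2 lower (-0.61 ± 0.22) and ID1 and ID3 higher (0.37 ± 0.15 and 0.46 ± 0.12). Immediate-early and ERK feedback genes were split as well. Of 25 tested, 4 were higher and 2 lower at an adjusted p under 0.01, against the same 0.689% and 2.04% of all genes. FOSL1, JUNB, JUND and DUSP5 rose by 0.44 to 0.69, and IER3 and DUSP4 fell by 0.50 and 0.37 on the log2 scale. An unadjusted limma p under 0.05 was reached by 17 of the 25, against 16.1% of all genes tested.

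Sterol genes did not move as a group. Of 22 tested, HMGCS1, an enzyme of early sterol synthesis, was called higher (1.12 ± 0.29, n = 5), and the other 21 did not pass the test, with a median of -0.01. For HMGCS1, 1 array had an outlier spot and was left out.

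Few members of the growth and cell cycle lists passed the test, and MYC, CCND1 and CDC25B, described above, are in none of these lists. Over all genes tested, 2.04% were lower and 0.689% were higher at an adjusted p under 0.01. Of 43 ribosome biogenesis genes, 3 fell at an adjusted p under 0.01, namely RRS1, PPAN and MYBBP1A (-0.32 to -0.48), and the median was -0.17. An unadjusted limma p under 0.05 was reached by 17 of the 43, against 16.1% of all genes tested. In 6 of 6 experiments 11 of the 43 were lower and 0 were higher, against 6.78% and 3.47% of all genes tested. Of 24 tested metabolic and growth genes that MYC induces, only the transferrin receptor gene TFRC passed (0.47 ± 0.32). Of 44 DNA replication genes 0 passed limma's adjusted p and 6 had an unadjusted p under 0.05, and of 40 mitotic genes only CKS2 did (0.45 ± 0.26). In the oxidative phosphorylation, interferon, Notch and unfolded protein response lists, with 43, 15, 15 and 17 genes tested, 0 passed, and 0, 4, 4 and 2 had an unadjusted limma p under 0.05. Of 10 tested differentiation genes, CA2 and KLF4 fell by 0.46 and 0.34 on the log2 scale, and of 23 tested p53 targets PLK3 rose by 0.46. Of 12 tested genes of epithelial-mesenchymal transition only SNAI2 passed, and of 19 tested hypoxia and glycolysis genes only BNIP3 did (0.63 ± 0.24).

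The arrays labelled Doxy and Ctl hold none of the arrays above, and show the same agent without butyrate. There, 18 probes were called (0.0948%), 5 lower (0.0263%) and 13 higher (0.0685%). Of the 72 probes called with butyrate, 3 were called without it, those of UPP1, DDIT3 and BC061915, and 67 changed by less than 0.5 in either direction. The difference between the 2 responses passed the interaction test for 57 of the 72, against 1.24% of all probes tested. DoxyNaB against NaB, which chose the 72, is a term of that difference, so the share is a description only. Among the probes called under each setting, it was 37 of 63 without the replicate block and 9 of 44 with median scaling after a floor of 5. The median change without butyrate was 0.02 over the probes called lower with butyrate and 0.03 over those called higher.

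Single genes show how the 4 treatments were arranged. SP5 and DKK1 had mean levels of -2.14 ± 0.17 and 4.76 ± 0.24 in Ctl and -2.34 ± 0.23 and 4.59 ± 0.18 in Doxy (SD, n = 6). They had 0.06 ± 0.18 and 6.49 ± 0.37 in NaB and -1.70 ± 0.24 and 4.90 ± 0.19 in DoxyNaB, so NaB stood above the other 3 treatments. MYC and ZFP36L1 had another order, with 4.49 ± 0.17 and 3.87 ± 0.09 in Ctl, 3.63 ± 0.21 and 3.00 ± 0.23 in NaB, and 2.12 ± 0.27 and 1.61 ± 0.21 in DoxyNaB. UCA1 was lowest in NaB, with 2.09 ± 0.18 in Ctl, -0.41 ± 0.10 in NaB and 1.46 ± 0.22 in DoxyNaB. AXIN2 was also lower in Doxy than in Ctl, by a change of -0.58 ± 0.15 (adjusted p = 0.0029), which was smaller than with butyrate (interaction adjusted p = 8.26e-08).

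**Figure D4:**
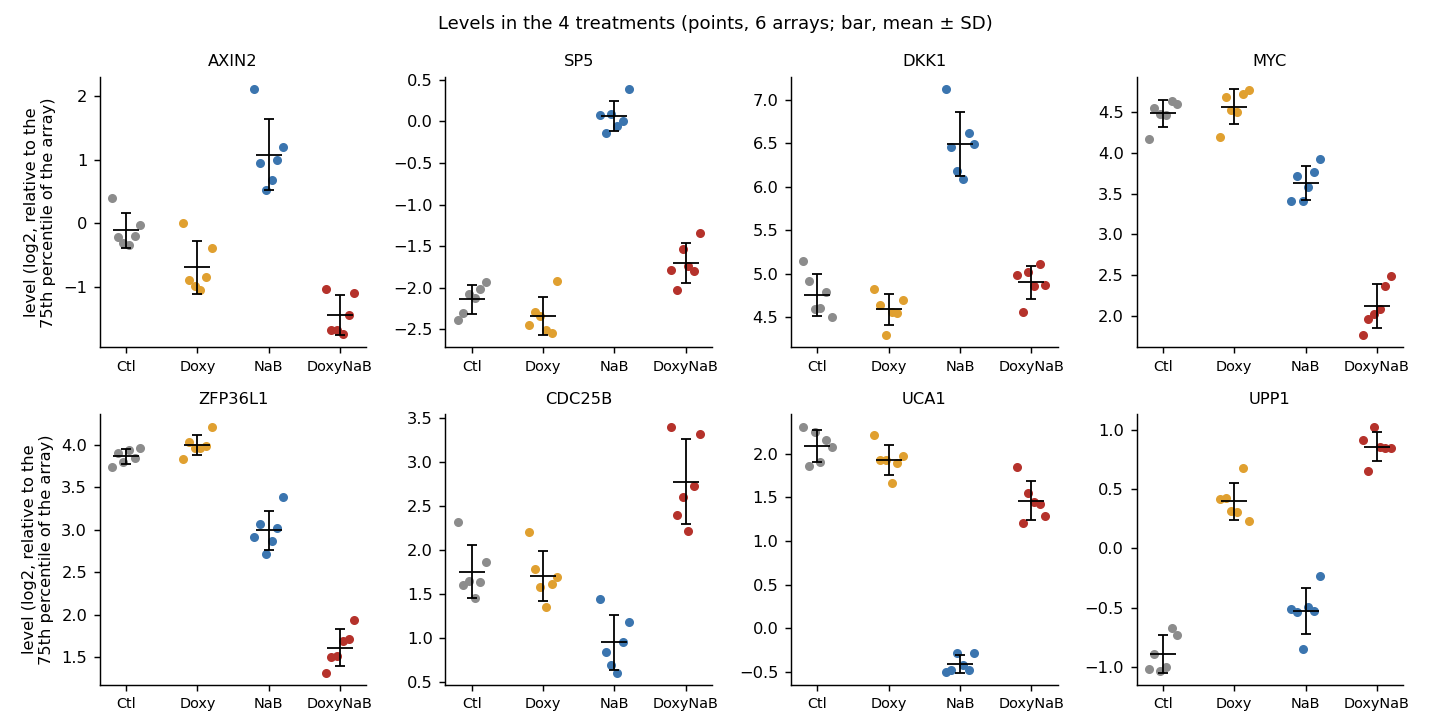
Levels of 8 genes on each of the 24 arrays (vertical axis, log2 relative to the 75th percentile of the array, with its own scale for each gene); points are arrays, and bars are the mean ± SD of 6. DoxyNaB lies below NaB for AXIN2, SP5, DKK1, MYC and ZFP36L1 and above it for CDC25B, UCA1 and UPP1.

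A few genes responded to doxycycline with and without butyrate. UPP1, uridine phosphorylase, rose by 1.38 ± 0.27 with butyrate and by 1.28 ± 0.17 without it, and the difference did not pass the interaction test (adjusted p = 0.84). DDIT3, the stress factor CHOP, rose by 1.58 ± 0.42 and 1.17 ± 0.24 (interaction adjusted p = 0.38). BC061915, whose probe lies in the mitochondrial genome, changed by -1.27 ± 0.44 with butyrate and -2.58 ± 0.60 without it, a smaller fall with butyrate (interaction adjusted p = 0.0055).

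Amino acid stress genes, which the factor ATF4 turns on, were higher with doxycycline on the arrays without butyrate. Of 32 tested, 17 rose and 0 fell at an adjusted p under 0.01, with a median of 0.51, against 69 higher (0.457%) and 14 lower (0.0927%) of all genes tested. With butyrate, 5 of the 32 rose, DDIT3, DDIT4 (0.74 ± 0.11), GDF15 (0.75 ± 0.16), ASNS (0.37 ± 0.20) and AARS1 (0.29 ± 0.13), and 0 fell. Of all genes tested with butyrate, 0.689% were higher and 2.04% were lower at an adjusted p under 0.01. The median of the 32 with butyrate was 0.03. The 2 responses differed by the interaction test for 8 of the 32, against 1.36% of all genes tested. CHAC1, a glutathione-degrading enzyme, changed by 1.49 ± 0.49 without and 0.29 ± 0.15 with butyrate (interaction adjusted p = 0.0061), and TRIB3, a pseudokinase, by 0.93 ± 0.15 and 0.05 ± 0.15 (interaction adjusted p = 5.9e-05).

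**Figure D5:**
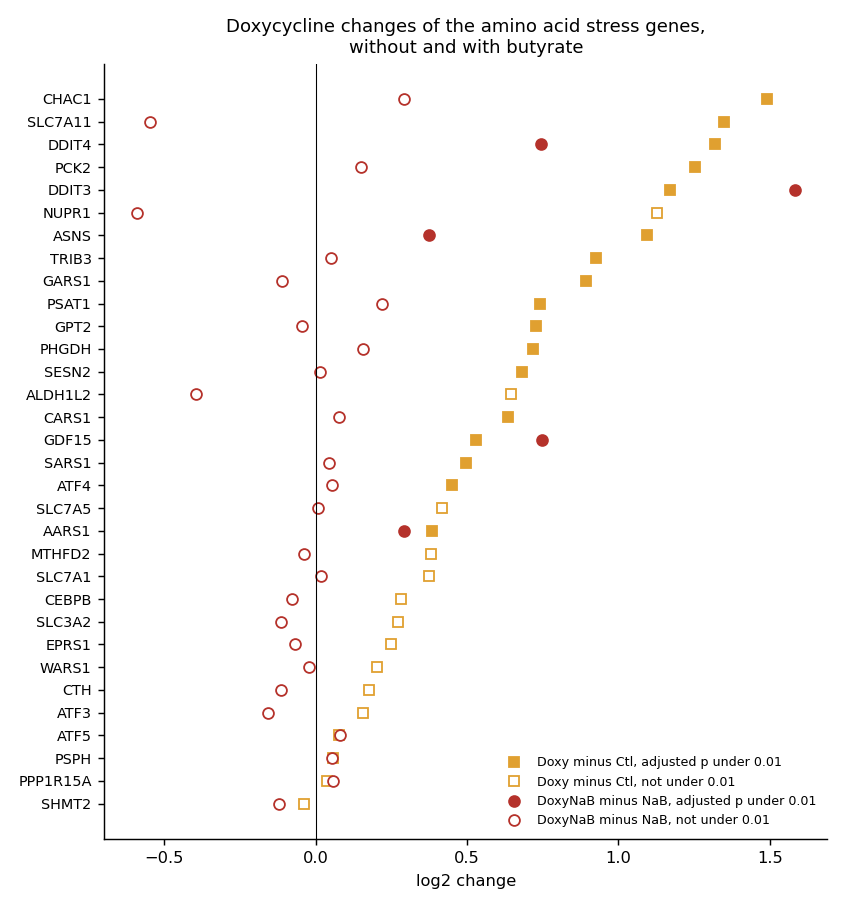
Change on doxycycline of the 32 tested amino acid stress genes (horizontal axis, log2) without butyrate (squares) and with it (circles); filled symbols have an adjusted p under 0.01. The squares lie mostly above 0, with a median of 0.51, and most circles lie near 0, with a median of 0.03.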

How the data were processed

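Gene expression was measured on 1-colour Agilent Human 4x44K v2 arrays, 6 per treatment. The deposited intensity values were written by the authors' provider with Agilent Feature Extraction (version 9.5.3.1 per the file headers), which subtracted background and detrended each array but did not scale arrays to each other. The genome build used for probe coordinates in the files is NCBI36.

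Control spots and outlier-flagged spots were left out, the spots of a probe were averaged as log2 values, computed here from the deposited intensities, and each array was centred on its 75th percentile (380.2 to 1323 in signal units). Well above background is the flag of the software, which uses a multiplier of 13 per the file headers, and held for 52.7% to 88.1% of the spots of an array. The number of arrays limits the precision. Probes were named through RefSeq by accession (25104), current symbol (1089), older symbol (435) or another probe of the transcript (174), and otherwise by the name in the file (7325). All 24 arrays were fitted with limma 3.58.1 (lmFit and eBayes, R 4.3.3), as 4 treatments, blocked by experiment, because the study's methods name a paired test of 6 biological replicates. P-values were adjusted by Benjamini-Hochberg over all 18983 probes. On simulated data of 18330 probes for DoxyNaB against NaB, 91 of 100 changes of 1.5 and 99 of 100 changes of 2.5 (log2) were called, with 1 false call. The simulated noise was independent between probes and arrays, and both sizes lie above the 2-fold limit. Of the 72 called probes, 38 changed by less than 2.5-fold, so these rates do not carry over to the data. Plots and tables were made with Python 3.11.15, pandas 2.3.3 and matplotlib 3.10.9.

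The comparison, the gene lists and the alternatives were chosen with earlier results of these data known. The named genes were TCF7L2, the targets listed by the study, the 15 largest falls and 15 largest rises called in 6 of 6 experiments and well above background on all 12 arrays, called genes with 0 arrays above background in 1 group, and of every other list up to 4 called members or, with 0 called, its lowest and highest. Values of 2 genes are not reported here, and these are left out of the lists. Other genes in the text were chosen after their values were seen. Alternatives were normexp (offset 50), quantile normalization, median scaling after a floor of 5, other filters, blocks, tests, thresholds and arrays.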

Additional observations from a re-analysis of the deposited data

Results flagged for a closer look

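The doxycycline response differed with and without butyrate, by the limma interaction test at an adjusted p under 0.01, for 30 of the 38 named probes that were called. The call itself rests on DoxyNaB against NaB, a term of this difference, so the share is a description only. The response with butyrate minus that without it, on the log2 scale, was below 0 for 16 of them, with -2.20 for MIR503HG, -1.95 for AXIN2, -1.61 for ZNF503, -1.60 for MYC, -1.56 for SP5, -1.52 for ZFP36L1, -1.50 for AF143325, -1.44 for MSX1, -1.43 for DKK1, -1.43 for ZNF280A, -1.40 for CCN2, -1.22 for KRTAP3-1, -1.05 for CPPED1, -1.05 for KITLG, -0.99 for BMP4 and -0.96 for RNF43. It was above 0 for the other 14, with 4.16 for TCF7L2 (most 3′ probe), 3.18 for TCF7L2 (probe 2 of 4), 3.13 for TCF7L2 (probe 3 of 4), 2.03 for UCA1, 1.87 for CDC25B, 1.75 for CRYBA2, 1.66 for LOC728975, 1.42 for CYSRT1, 1.42 for RNASE1, 1.40 for SBSN, 1.36 for HMGCS1, 1.33 for IL11, 1.31 for BC061915 and 1.15 for LHB. BC061915 is the one of these where the value above 0 stands for a smaller fall.

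Single arrays stood apart from the other 5 of their treatment in a few cases, by Dixon's criterion at 95%. Of 112 groups of 6 values examined for the named probes, 7 had such an array, and chance gives about 1 in 20. The NaB array of experiment 1 was high for TCF7L2 probe 2 (2.74) and LHB (1.70), and the DoxyNaB array of experiment 1 for the same TCF7L2 probe (6.28). DDIT3 was high on the NaB array of experiment 5 (2.11). MIR503HG was low on the NaB array of experiment 4 (0.082) and high on the DoxyNaB array of experiment 2 (-0.88). The change of AF143325 was largest in experiment 1 (-1.98). The causes were not tested.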

How the results depend on the processing

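The 72 called probes (48 lower, 24 higher), the 18 of Doxy against Ctl and the 57 past the interaction test changed with the test, the fold limit, the treatment of dim signal and the number of arrays. With normexp the 5 counts, in the order total, lower, higher, Doxy against Ctl and interaction (among the probes each setting called), were 37, 25, 12, 11 and 22. With median scaling after a floor of 5 they were 44, 25, 19, 5 and 9. With the methods' paired t-test after adjustment they were 15, 6, 9, 3 and 0, and with an unadjusted p under 0.01 they were 84, 52, 32, 22 and 69. A fold of 1.5 gave 210, 152, 58, 55 and 128, and a fold of 3 gave 18, 8, 10, 3 and 16. Scan 3 alone (experiments 2 to 4) gave 36, 22, 14, 3 and 5, and scan 4 alone (experiments 5 and 6) gave 3, 1, 2, 0 and 0, with fewer arrays. All 72 probes kept their direction within both scans. This adds nothing to the count by experiment, since each called probe moved in its direction in every experiment that measured it. In scan 4, Doxy against Ctl had 2927 probes at an unadjusted limma p under 0.05.

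Without the replicate block the counts were 63, 41, 22, 13 and 37. Every pair of NaB and DoxyNaB arrays correlated in its deviations except experiment 3 (r = -0.22). Leaving out each experiment in turn gave 60 to 73 called, 39 to 47 lower, 19 to 26 higher, 14 to 19 for Doxy against Ctl and 44 to 53 past the interaction test. Without experiments 2 and 3 the counts were 60, 38, 22, 16 and 38, and 55 of the 72 probes were kept. In the remaining alternatives, including quantile normalization (83 called) and the 75th percentile over probes (71 called), which was added after seeing the data, the counts stayed within 1.5 times. The probes called changed more than the totals. Quantile normalization kept 60 of the 72, and a fit of only the 12 arrays compared, with 42 lower and 30 higher, kept 62. The interaction was not run on only the 12 arrays compared, where it does not apply. The cause of these differences was not tested.

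1 of the 72 probes, of RUNX1, changed its sign with normexp, to 0.03.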

Other observations

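Some called genes outside the lists are not described above. Among the genes called higher, TM4SF19, a tetraspanin-like membrane protein, rose by 2.11 ± 0.73 (n = 6) and was well above background on 5 of 6 NaB arrays, and the chromatin-binding factor gene ARID3B rose by 1.03 ± 0.30. Among the genes called lower, ITPRIP, which interacts with inositol trisphosphate receptors, changed by -1.24 ± 0.24, the serpin SERPINB8 by -1.35 ± 0.25, and TNS4, a focal adhesion tensin, by -1.01 ± 0.23. SERPINB8 changed by -0.17 with normexp. SNAR-A3, 1 of several near-identical small noncoding RNA genes, changed by -1.27 ± 0.32, and the copy that fell is uncertain.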
